A study of Gallus gallus with 20 samples.

Results

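Transporters of the SLC1, SLC3, SLC6, SLC7, SLC36, SLC38 and SLC43 families, most of which carry amino acids across membranes, were followed in liver and breast muscle of chickens. Members were the genes of the deposited table whose symbol starts with the name of 1 of these 7 families. The taurine transporter SLC6A6 matches that pattern and was left out. This gave 45 of the 27170 genes in the table, of which 14 belong to SLC6, 10 to SLC7, 10 to SLC38, 6 to SLC1, 2 to SLC36, 2 to SLC43 and 1 to SLC3. SLC7A6OS matches by name alone. It is named for lying on the opposite strand of SLC7A6, and is not known as a transporter, which leaves 44 carriers and accessory chains. The table gives no symbol for 13482 genes. Of these, 4 are described in it as SLC6A8, SLC6A14, SLC7A7 and SLC7A13, and their values stand apart from those of the members. SLC3A2, SLC1A5, SLC7A6, SLC7A8, SLC38A5 and SLC43A1 were not analysed here.

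The birds were KRC chickens, a slow-growing mixed-sex flock, sampled at a slaughter age of 91 days according to the labels. Conventional birds received a commercial feed and stayed indoors, and organic birds received a feed of organic raw materials and went onto Ruzi grass pasture from day 21. Feed and pasture changed together, so their parts cannot be told apart. Liver and pectoralis major, the large breast muscle, gave 5 conventional and 5 organic libraries each, 20 in all, and the labels do not say whether liver and muscle of the same number come from the same bird. Each system had 125 chicks in 5 pens in 1 poultry house, and the pen of a sampled bird was not used here, so a p-value measures the spread between these libraries.

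Amino acids are charged or polar and cross membranes through such carriers. Some carriers use the sodium gradient to concentrate amino acids in the cell (SLC1, SLC6 and SLC38), some exchange an amino acid inside for another outside (many of SLC7), and some let them pass down their gradient (SLC43). In mammals, liver takes up amino acids from portal blood for protein synthesis, glucose and nitrogen disposal, and skeletal muscle exchanges branched-chain amino acids and glutamine with the blood. The roles given below are those described in mammals, mainly in human, mouse and rat.

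Liver libraries held 14065269 to 15175691 counts, except organic replicate 1 with 20488526, and muscle libraries 12699692 to 13417005. Levels are the deposited FPKM, read counts per length of the gene and per library factor, so levels of different genes can be set side by side. Fold changes are on the log2 scale from an edgeR fit of the counts. The SE after the ± sign was derived as the absolute log2 fold change over the square root of the F statistic of its test. A member passed where its Benjamini-Hochberg adjusted p over all genes tested was under 0.05. Values listed for a group run from replicate 1 to replicate 5. The tissues carried their own markers. The summed level of 7 hepatocyte markers was 59653 to 102601 FPKM in liver. In muscle it was 255 to 1285, nearly all of it APOA1, while ALB stood at 0 to 0.840. The sum of 5 skeletal muscle fibre markers was 53943 to 77364 FPKM in muscle and 0.494 to 3.02 in liver.

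The members, all with a symbol, differed between liver and breast muscle in total level and in make-up. The summed level of all members was 479 to 809 FPKM in liver (median 653) and 159.6 to 361 FPKM in muscle (median 182), and the highest muscle libraries were organic replicate 3 at 361 and conventional replicate 3 at 288. SLC38 carriers made up 73.1% to 87.2% of the sum in liver and 22.4% to 48.6% in muscle. SLC7 members took 5.08% to 11.9% in liver and 26.2% to 59.3% in muscle, and SLC43 members 1.76% to 3.28% in liver and 7.86% to 44.6% in muscle. The ranges of these 3 shares did not overlap between the tissues. These sums leave out SLC6A8, an SLC6 gene without a symbol. It was higher in muscle, with a log2 fold change, liver over muscle, of -5.01 ± 0.14. Its median level in muscle, given below, was above the highest member sum of that tissue. With it, SLC6 would be the largest family in muscle and the totals of the tissues would overlap. The totals and shares thus hold for the members alone.

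**Figure D1:**
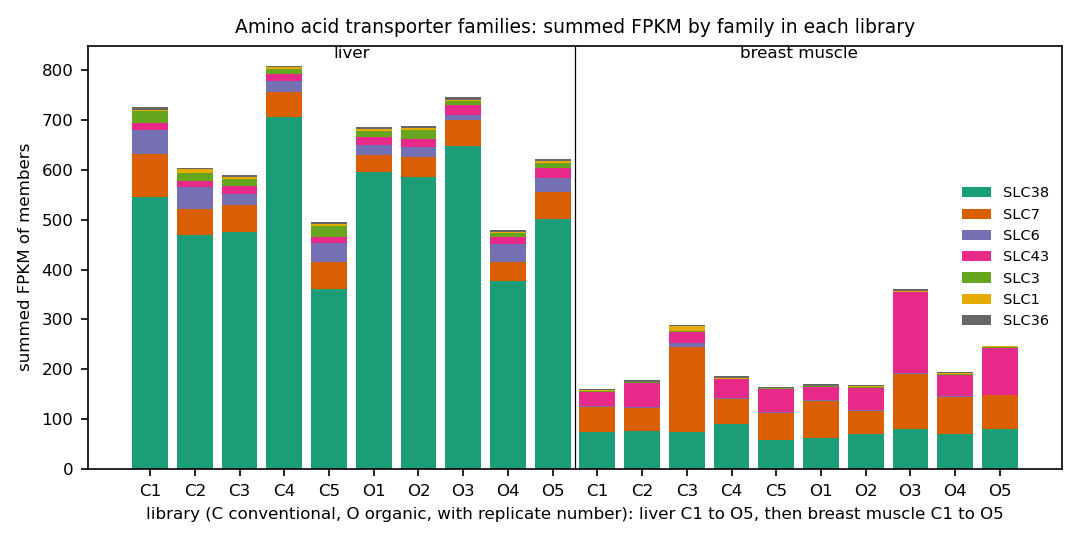
Summed deposited FPKM of the members in each of the 20 libraries (bars, stacked by family; C is conventional, O organic, with the replicate number). Liver bars reach 479 to 809 FPKM and are mostly SLC38, and muscle bars reach 159.6 to 361 FPKM and are shared by SLC38, SLC7 and SLC43. Genes without a symbol, SLC6A8 among them, are not in the bars.

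The order of members also differed. SLC38A4 was the highest member in all 10 liver libraries, followed in each of them by SLC38A3 and SLC38A2, and these 3 carriers held 73.0% of the mean member sum. SLC43A2 was the highest member in 5 muscle libraries, SLC7A5 in 4 and SLC38A3 in 1, so no fixed order held at the top of the muscle list. After the first 3, liver had SLC38A10 (27.3 ± 2.7 FPKM, SD, n = 10), SLC6A12 (22.4 ± 10.8) and SLC7A2 (22.2 ± 8.99), which differed from each other by less than the spread of SLC6A12. Muscle had SLC43A2 (53.4 ± 41.9 FPKM, SD, n = 10), SLC7A5 (46.3 ± 31.1), SLC38A3 (29.2 ± 9.83), SLC38A2 (21.5 ± 4.5) and SLC7A2 (15.0 ± 4.93) as its first 5. SLC43A2 and SLC7A5 differed by less than the spread of either, and SLC38A3 and SLC38A2 by less than the spread of SLC38A3.

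**Figure D2:**
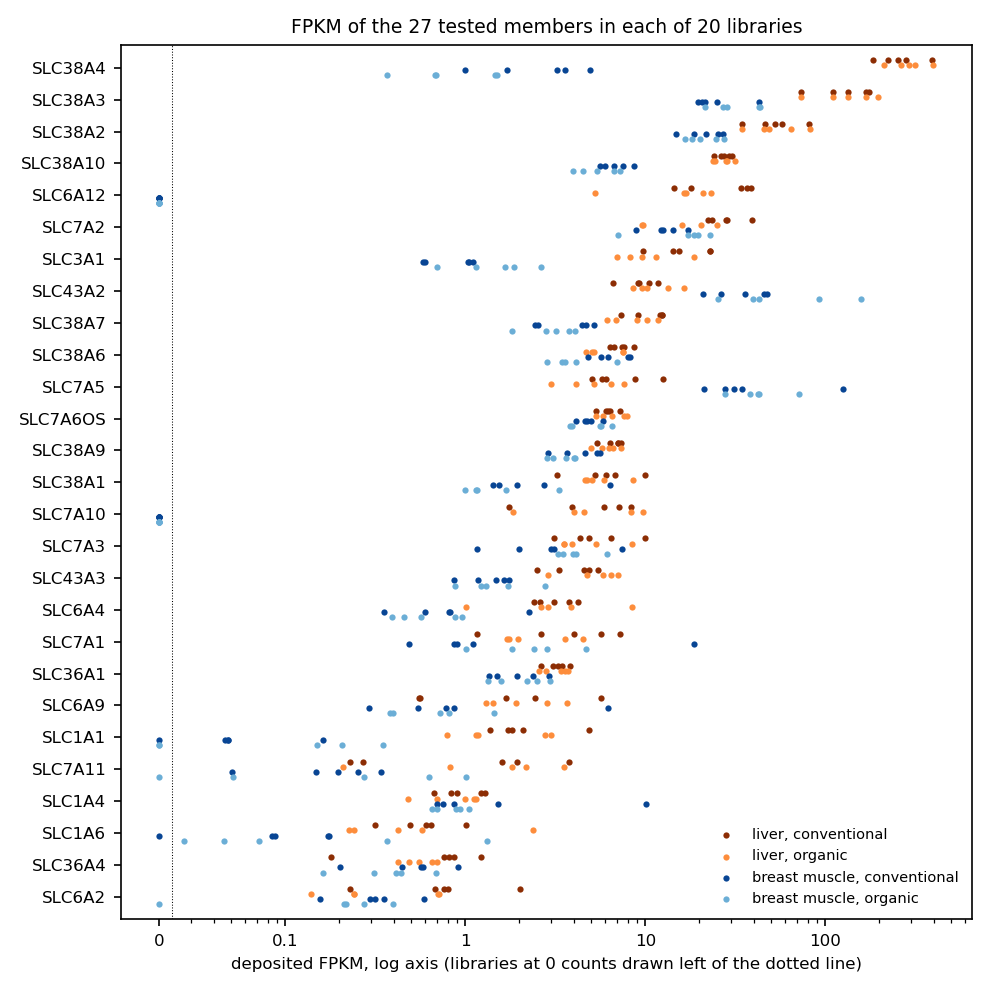
Deposited FPKM (log axis) of the 27 members that passed the filter on low counts, 1 point per library, with members ordered by their mean in liver. SLC38A4 runs from 185 to 398 FPKM in liver and from 0.369 to 4.94 in muscle, SLC6A12 and SLC7A10 have 0 counts in all 10 muscle libraries, and SLC7A5 and SLC43A2 lie higher in muscle.

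The comparison of liver with breast muscle asked which carriers differed in mRNA level between the tissues. Of 27 members tested over all 20 libraries, 20 were higher in liver, 2 were lower (SLC7A5 and SLC43A2) and 5 did not pass. Of all 14447 genes tested, 42.5% were higher in liver and 39.1% lower. With a second rule, at least 4-fold and adjusted p under 0.05, 9 members were higher in liver and 2 lower, where 17.4% and 14.5% of all genes were. With limma on log2(FPKM + 1), which understates changes of low genes, 7 members in all met that rule, as did 2451 of 14447 genes. The median log2 fold change was 1.37 for the 27 members and 0.07 for all genes. Liver and muscle libraries did not overlap in FPKM for 11 of the 27, and for 49.0% of all genes. By family, the higher members in liver were 8 of 8 tested in SLC38, 4 of 7 in SLC7, 3 of 4 in SLC6, 2 of 3 in SLC1, and 1 each in SLC3, SLC36 and SLC43. In bulk tissue, fewer cells of a type and less RNA per cell cannot be told apart. The members were not chosen at random from the genome, and 18 others did not pass the filter, so these counts describe the tested members alone. SLC1A1, SLC1A6, SLC6A12, SLC7A10, SLC7A11 and SLC36A4 passed the filter within liver (27 members) but not within muscle (21). They entered this comparison through liver alone, and all but SLC36A4 are among the members called higher there. SLC1A1, SLC6A12, SLC7A10 and SLC7A11 are also among those past 4-fold. The counts and the median thus partly follow from the filter. For the same reason no p-value of the tissue comparison is given below for members that entered through liver alone.

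Among the sodium-coupled neutral carriers of SLC38, SLC38A4 had the widest gap. SLC38A4 (ENSGALG00000009730, chromosome 1, 31222996 to 31253936, minus strand) takes up small neutral amino acids and also cationic ones, and in mammals it is known from liver. Its level was 253, 223, 279.7, 392 and 185 FPKM in conventional and 398, 293, 314, 211 and 264 FPKM in organic livers. In breast muscle it was 3.58, 3.24, 4.94, 0.998 and 1.70 in conventional and 0.675, 1.45, 0.369, 1.49 and 0.684 in organic birds. The lowest liver library thus stood far above the highest muscle library, and the log2 fold change was 7.43 ± 0.33 (adjusted p = 7.6e-15), a 172-fold difference.

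SLC38A3 (ENSGALG00000028871, chromosome 12, 3614475 to 3623786, minus strand) moves glutamine, histidine and asparagine in either direction. It stood at 168, 134, 109.7, 176 and 73.2 FPKM in conventional and 111, 169, 195, 72.9 and 133 in organic livers. In muscle the values were 19.7, 25.2, 20.6, 42.6 and 21.5 in conventional and 28.3, 21.4, 42.7, 27 and 43.4 in organic birds. Every liver library was above every muscle library, with a log2 fold change of 2.22 ± 0.21 (adjusted p = 2.88e-09), and it was still the third highest member in muscle. SLC38A2, the system A carrier that mammalian cells raise when amino acids run short, was at 57.4, 52.6, 34.5, 80.8 and 46.1 FPKM in conventional and 34.5, 64.8, 82.1, 45.8 and 48.7 in organic livers. Muscle libraries had 27, 21.7, 18.7, 25.4 and 14.8 in conventional and 20.1, 27.4, 16.6, 24.8 and 18.1 in organic birds. The tissues again did not overlap and the log2 fold change was 1.37 ± 0.17 (adjusted p = 2.01e-07).

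SLC38A10 (ENSGALG00000006880, chromosome 18, 9223491 to 9252720, plus strand), a large member of the family that is less studied, was the steadiest in liver, with 23.8 to 31.3 FPKM over 10 libraries, against 3.98 to 8.66 in muscle. Its log2 fold change was 2.16 ± 0.11 (adjusted p = 1.07e-13). The other 4 members tested were also higher in liver, by less. SLC38A7, a lysosomal glutamine carrier, was at 6.16 to 12.4 FPKM (median 9.68) in liver and 1.81 to 5.18 FPKM (median 3.48) in muscle, a log2 fold change of 1.49 ± 0.18. SLC38A1, a system A carrier like SLC38A2, was at 3.22 to 9.97 FPKM (median 5.56) and 0.992 to 6.33 FPKM (median 1.61), with 1.49 ± 0.28. SLC38A9, the lysosomal arginine sensor that signals to mTORC1, was at 6.41 ± 0.810 FPKM in liver and 3.98 ± 0.969 in muscle (SD, n = 10), with 0.71 ± 0.12. SLC38A6 had the smallest difference, 6.68 ± 1.32 against 5.38 ± 1.92 FPKM (SD, n = 10), a log2 fold change of 0.36 ± 0.15 (adjusted p = 0.0356), and this call was lost when any 1 of 10 libraries was left out (liver conventional 4, liver organic 3 and 5, muscle conventional 1, 4 and 5, and muscle organic 1 to 4).

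SLC38A1, SLC38A2 and SLC38A4 are neighbours on the minus strand of chromosome 1 in GRCg6a. SLC38A1 and SLC38A2 are 24 kb apart with no annotated gene between them, and SLC38A2 and SLC38A4 are 101 kb apart with 3 between. Their tissue differences were unequal, at 1.49, 1.37 and 7.43 on the log2 scale. SLC38A7 shares 1123 bases of the same strand with GOT2, a mitochondrial aminotransferase, so its counts are uncertain.

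SLC7 members, which need a heavy chain or carry cationic amino acids on their own, included members higher in each tissue. SLC7A5 (ENSGALG00000005845, chromosome 11, 17954812 to 17987235, minus strand) is the light chain of the exchanger that brings leucine and other large neutral amino acids into cells in return for glutamine. It was at 12.5, 5.05, 6.03, 5.72 and 8.81 FPKM in conventional and 2.99, 6.49, 7.59, 5.21 and 4.11 in organic livers. Muscle had 31.2, 21.2, 125, 27.8 and 34.6 in conventional and 42.4, 27.6, 71.7, 42.8 and 38.2 in organic birds. All 10 muscle libraries were above all 10 liver libraries, and conventional replicate 3 was the highest of them. The log2 fold change, liver over muscle, was -2.85 ± 0.31 (adjusted p = 3.52e-08), 7.22-fold higher in muscle, and -2.49 ± 0.21 without that library. Its heavy chain partner SLC3A2 was not analysed here.

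SLC7A2 (ENSGALG00000013627, chromosome 4, 63027358 to 63067114, minus strand), which takes up arginine, lysine and ornithine, differed little between the tissues, at 22.2 ± 8.99 FPKM in liver and 15.0 ± 4.93 in muscle (SD, n = 10). Its log2 fold change was 0.54 ± 0.20 (adjusted p = 0.0189). Within conventional birds alone it was 1.13, and within organic birds alone -0.06, so the call rested on the conventional libraries. The other cationic carriers did not pass. SLC7A1 was at 1.16 to 7.21 FPKM (median 3.11) in liver and 0.488 to 18.7 FPKM (median 1.46) in muscle, a log2 fold change of 0.02 ± 0.55. SLC7A3 was at 3.10 to 9.94 FPKM (median 4.61) and 1.17 to 7.41 FPKM (median 3.40), with 0.53 ± 0.27. Both passed without muscle conventional replicate 3, at 1.2 ± 0.33 and 0.79 ± 0.23. SLC7A3 shares 5839 bases of the same strand with SNX12, which held 27741 counts against its own 5773, so its values are uncertain.

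Among the light chains, SLC7A10 (ENSGALG00000004729, chromosome 11, 10088016 to 10120434, minus strand), a carrier of alanine, serine, glycine and cysteine, had 8.35, 7.16, 3.89, 5.87 and 1.74 FPKM in conventional and 1.84, 9.76, 8.30, 4.57 and 4.02 in organic livers. It had 0 counts in all 10 muscle libraries. Its mean in liver was at least 398-fold higher than the level that 3 counts over the 10 muscle libraries would give. It entered the tissue comparison through liver alone. Its whole span overlaps GPATCH1 on the opposite strand, which was at 6.76 to 11.6 FPKM in muscle. SLC7A11 (ENSGALG00000009758, chromosome 4, 28905344 to 28960060, minus strand), the cystine and glutamate exchanger, was low and uneven, at 3.76, 1.6, 1.93, 0.270 and 0.228 FPKM in conventional and 0.209, 0.825, 2.18, 1.82 and 3.56 in organic livers. Muscle had 0.148, 0.195, 0.342, 0.253 and 0.0506 in conventional and 0, 0.628, 0.0515, 1.0 and 0.273 in organic birds. Some livers lay within the muscle range, and the log2 fold change was 2.54 ± 0.62. SLC7A11 also entered the tissue comparison through liver alone.

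SLC3A1 (ENSGALG00000009973, chromosome 3, 25588912 to 25603301, plus strand) is the heavy chain that carries the light chain SLC7A9 to the membrane, a pair that takes up cystine and basic amino acids in kidney and gut. It was at 22.9, 15.5, 14.3, 9.75 and 22.9 FPKM in conventional and 11.4, 18.6, 8.25, 6.97 and 9.57 in organic livers. Muscle had 1.04, 0.596, 1.05, 0.584 and 1.10 in conventional and 2.64, 1.67, 0.699, 1.86 and 1.15 in organic birds. The tissues did not overlap, and the log2 fold change was 3.55 ± 0.24 (adjusted p = 1.59e-11). SLC7A9 itself was at 0 to 0.651 FPKM (median 0.221) in liver and 0 to 0.422 FPKM (median 0.0469) in muscle. With 110 counts in 20 libraries it did not pass the filter, so the heavy chain was present in liver at a mean of 14 FPKM beside a light chain at 0.302.

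SLC43A2 (ENSGALG00000002783, chromosome 19, 5454360 to 5480180, minus strand), a carrier that lets branched-chain amino acids, phenylalanine and methionine pass down their gradient, was the highest member of muscle by mean. It was at 26.2, 47.5, 21.0, 36 and 45.5 FPKM in conventional and 25.3, 42.6, 158, 39.6 and 92.8 in organic muscle. Livers had 9.14, 9.26, 10.4, 11.7 and 6.62 in conventional and 9.61, 10.2, 16.4, 8.59 and 13.4 in organic birds. Muscle was above liver in every library, with a log2 fold change, liver over muscle, of -2.25 ± 0.27 (adjusted p = 1.87e-07). Its relative SLC43A3, which carries purine bases and not amino acids, went the other way, at 4.77 ± 1.5 FPKM in liver and 1.48 ± 0.557 in muscle (SD, n = 10), a log2 fold change of 1.69 ± 0.21.

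In SLC6, whose members carry neurotransmitters, osmolytes and amino acids with sodium and chloride, SLC6A12 was the main member of liver. SLC6A12 (ENSGALG00000019290, chromosome 1, 60151819 to 60178280, minus strand) carries betaine, an osmolyte and methyl donor, and GABA. Livers had 38.5, 36.9, 18.0, 14.4 and 34.2 FPKM in conventional and 16.4, 16.9, 5.24, 23.2 and 20.8 in organic birds. All 10 muscle libraries had 0 counts, so SLC6A12 entered the tissue comparison through liver alone. Its mean in liver was at least 1721-fold higher than 3 counts over the muscle libraries would give. SLC6A13, 11.9 kb away on the same strand and a carrier of GABA and taurine, had 38 counts in all 20 libraries and was not tested.

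SLC6A4, the serotonin transporter, was at 1.02 to 8.43 FPKM (median 2.99) in liver and 0.352 to 2.25 FPKM (median 0.705) in muscle, with a log2 fold change of 2.14 ± 0.34 (adjusted p = 6.69e-06). SLC6A2, the noradrenaline transporter, was under 1 FPKM in most libraries and had 1.14 ± 0.44 (adjusted p = 0.0203). This call was lost without liver conventional replicate 4 and in organic birds alone. It was also lost when same-numbered liver and muscle libraries of a raising system were treated as 1 bird. The glycine transporter SLC6A9 did not pass at 0.97 ± 0.51, and passed at 1.70 ± 0.41 without muscle conventional replicate 3. The creatine transporter SLC6A8, described without a symbol and outside the member count, was the highest of all these carriers in muscle. It stood at 322 to 585 FPKM (median 389.5) there and 10.1 to 16.3 FPKM (median 11.7) in liver, with a log2 fold change of -5.01 ± 0.14. SLC6A14, also without a symbol, was at 2.67 ± 1.41 FPKM in liver and 0.620 ± 0.294 in muscle (SD, n = 10), with 2.10 ± 0.38.

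In SLC1, SLC1A1 (ENSGALG00000010187, chromosome Z, 27065681 to 27123343, plus strand), a carrier of glutamate and aspartate, was at 1.81, 4.85, 1.72, 2.10 and 1.37 FPKM in conventional and 2.78, 3.0, 0.794, 1.14 and 1.18 in organic livers. Muscle had 0, 0.0464, 0.163, 0.0482 and 0.0481 in conventional and 0, 0.348, 0, 0.151 and 0.207 in organic birds, 20 counts in all. The tissues did not overlap, and the log2 fold change was 4.41 ± 0.49, for a member that entered the comparison through liver alone. SLC1A6, another glutamate transporter that entered through liver alone, had means of 0.691 FPKM in liver and 0.235 in muscle, and the tissues overlapped. Liver organic replicate 5 was at 2.37 FPKM, against 0.227 to 1.01 in the other livers. The log2 fold change of SLC1A6 was 1.80 ± 0.61, and it was not called in organic birds alone. SLC1A4, an exchanger of alanine, serine and cysteine, did not pass at -0.70 ± 0.41. Without muscle conventional replicate 3 its value was 0.06 ± 0.22. In SLC36, the lysosomal proton-coupled carrier SLC36A1 was higher in liver, at 3.23 ± 0.446 against 2.07 ± 0.616 FPKM (SD, n = 10) and 0.66 ± 0.16 on the log2 scale. SLC36A4 did not pass at 0.51 ± 0.32. SLC7A6OS was at 6.44 ± 0.889 and 4.99 ± 0.902 FPKM (SD, n = 10), with 0.38 ± 0.11 (adjusted p = 0.00363), and was not called in organic birds alone.

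The remaining 18 members did not pass the filter on low counts in the tissue comparison. SLC6A5, SLC6A11, SLC6A15, SLC6A18 and SLC7A14 had 0 counts in all 20 libraries, and 3 counts in the 283742272 counts of these libraries would be 0.0106 CPM. SLC1A3, SLC6A17, SLC6A19, SLC6A20 and SLC38A8 had 1 to 9 counts. The other 8, which include SLC1A2, SLC1A7, SLC6A7, SLC6A13, SLC7A4, SLC7A9 and SLC38A11, had 20 to 130, and the highest mean of any of the 18 in a tissue was 0.302 FPKM. This group holds the main glutamate transporters of mammalian brain (SLC1A2 and SLC1A3), the GABA transporter SLC6A11, the glycine transporter SLC6A5, and SLC6A18 and SLC6A19, which absorb neutral amino acids in kidney and gut. SLC6A18 and SLC6A19 lie 2.43 kb apart on chromosome 2. SLC7A7, the light chain that exports basic amino acids and is known from macrophages in mammals, has no symbol in the table. It was at 2.42 ± 2.61 FPKM in liver and 1.22 ± 0.505 in muscle (SD, n = 10), with 0.92 ± 0.49, which did not pass, and macrophage markers summed to 496 to 983 FPKM in liver and 26.1 to 67.1 in muscle. SLC7A13 had 1 count in all.

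The raising comparison in liver asked whether organic feed with pasture went with other carrier levels. With edgeR 0 of 27 members passed, and 0.0% of 13186 genes. At an unadjusted p under 0.05 there were 2 members (SLC7A2 and SLC3A1), where 7.56% of all genes lay. DESeq2 called 32 genes and 0 members, with 4 members at an unadjusted p under 0.05, where 1168 of 13170 genes lay. With limma on log2(FPKM + 1) 0 were called, with 2 members and 951 of 13186 genes at an unadjusted p under 0.05. Conventional and organic livers overlapped in FPKM for all 27 members, and did not overlap for 1.08% of all genes. The log2 fold change, organic over conventional, was above 0 for 11 and below 0 for 16, with a median of -0.11 against -0.01 over all genes.

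The 6 members with the smallest p in liver all had lower values in the mean of organic birds, none of them past the threshold. SLC7A2 was at 39.3, 22.4, 28.5, 27.9 and 23.4 FPKM in conventional and 16, 9.62, 20.5, 9.76 and 25.0 in organic livers. All 5 organic livers lay below the conventional mean and 4 of 5 below every conventional liver, and the log2 fold change was -0.81 ± 0.27 (adjusted p = 0.625). SLC3A1 was at 17.1 ± 5.74 FPKM in conventional and 11 ± 4.59 in organic livers (SD, n = 5), lower than the conventional mean in 4 of 5, with -0.66 ± 0.29 (adjusted p = 0.653). SLC6A12, listed above, was at 28.4 ± 11.3 and 16.5 ± 6.90 FPKM (SD, n = 5), with -0.79 ± 0.39 (adjusted p = 0.653). All 5 organic livers were below its conventional mean, but 4 of 5 were within the conventional range.

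SLC6A2 was at 0.679, 0.804, 0.228, 2.02 and 0.765 FPKM in conventional and 0.719, 0.702, 0.240, 0.240 and 0.140 in organic livers, with -1.15 ± 0.57 (adjusted p = 0.653). Conventional replicate 4 was the highest of these, and without it the value was -0.63. SLC7A5 was at 7.63 ± 3.10 and 5.28 ± 1.83 FPKM (SD, n = 5), with -0.55 ± 0.29 (adjusted p = 0.659), and -0.29 without conventional replicate 1. SLC38A6 was at 7.63, 6.73, 7.41, 8.68 and 6.37 FPKM in conventional and 5.07, 4.68, 7.5, 5.18 and 7.53 in organic livers, with -0.31 ± 0.16 (adjusted p = 0.659). Organic livers fell into 3 below every conventional one and 2 within their range. The 3 highest carriers of liver had small differences against their error: SLC38A4 0.14 ± 0.22, SLC38A3 0.03 ± 0.28 and SLC38A2 0.01 ± 0.25. Their SE was 0.22 to 0.28, and SLC7A2, with a difference of -0.81 and an SE of 0.27, did not pass. A member that did not pass is thus not shown to be unchanged.

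**Figure D3:**
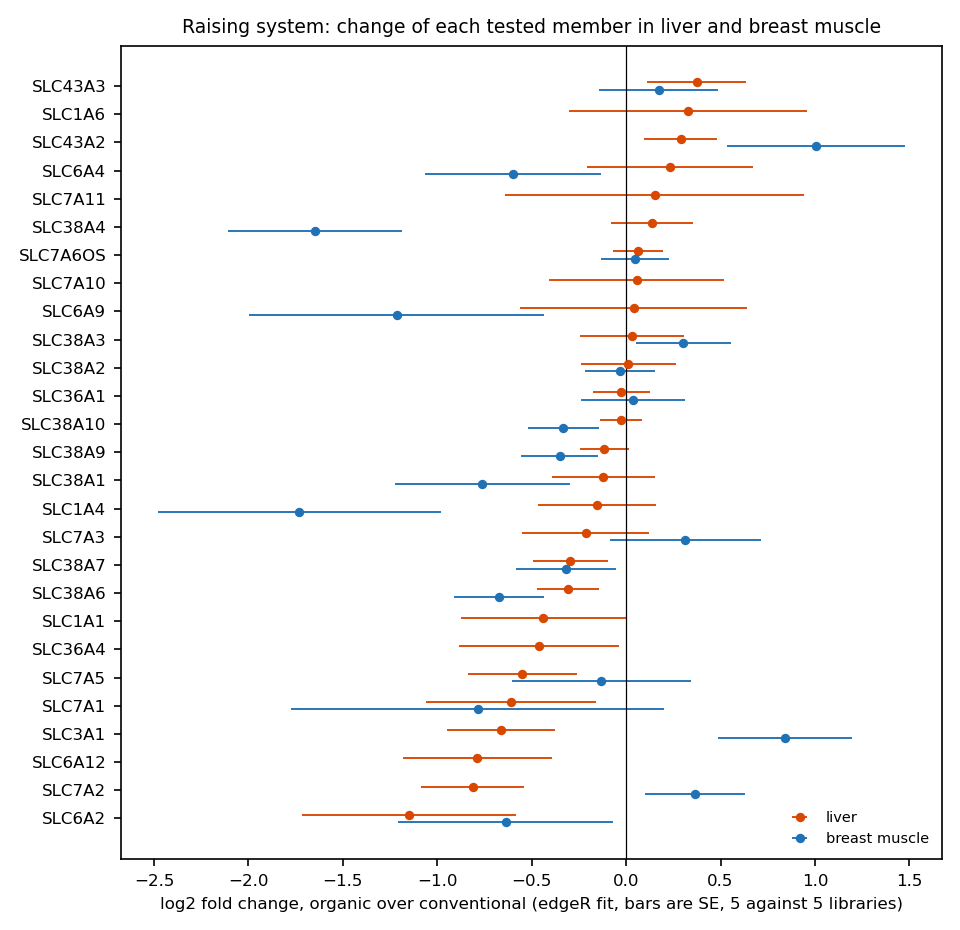
Log2 fold change, organic over conventional, of each tested member in liver (27 members) and breast muscle (21 members), with SE as bars, from the edgeR fit of 5 against 5 libraries. No member passed in either tissue, and the lowest values are SLC1A4 at -1.73 and SLC38A4 at -1.65 in muscle.

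In breast muscle 21 members were tested, and with edgeR 0 of 21 passed, and 0.0% of 12496 genes. At an unadjusted p under 0.05 there were 4 members (SLC38A4, SLC38A6, SLC3A1 and SLC1A4), where 7.47% of all genes lay. DESeq2 called 15 of 12468 genes, gave a p-value for 18 of the 21 members and called 0 of them. It gave none for SLC1A4, SLC6A9 and SLC7A1, all highest in conventional replicate 3. At an unadjusted p under 0.05 it had 3 members and 1085 genes. With limma on log2(FPKM + 1) 0 were called, with 3 members and 990 of 12496 genes at an unadjusted p under 0.05. Groups overlapped in FPKM for all 21, and did not for 1.26% of all genes. The log2 fold change was above 0 for 8 members and below 0 for 13, with a median of -0.32 against -0.01 over all genes. Without conventional replicate 3 the median of the members was -0.08.

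SLC38A4 had the smallest p of the members. The values listed above give 2.89 ± 1.56 FPKM in conventional and 0.935 ± 0.507 FPKM in organic muscle (SD, n = 5), with all 5 organic libraries below the conventional mean and 3 of 5 below every conventional library. The log2 fold change was -1.65 ± 0.46 (adjusted p = 0.567, and 0.0809 with DESeq2). This is a carrier at 281 FPKM in liver, so liver markers in muscle are set beside it. The hepatocyte sum was 255 to 1285 FPKM in conventional and 403 to 776 in organic muscle, and ALB was 0.0648 to 0.840 and 0 to 0.536. That sum is nearly all APOA1, at 253 to 1283 FPKM in muscle. The part of liver RNA in the SLC38A4 values was not tested.

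SLC38A6 was at 5.67, 8.19, 8.01, 4.80 and 6.19 FPKM in conventional and 2.85, 3.58, 3.47, 4.10 and 6.95 in organic muscle. Organic libraries were below every conventional one in 4 of 5, and the log2 fold change was -0.68 ± 0.24 (adjusted p = 0.599). SLC3A1 had higher values in organic muscle, at 1.6 ± 0.737 against 0.873 ± 0.259 FPKM (SD, n = 5), with 4 of 5 organic libraries above every conventional one. Its log2 fold change was 0.84 ± 0.35 (adjusted p = 0.647), at levels under 3 FPKM. SLC43A2, listed above, was at 35.2 ± 11.6 and 71.7 ± 54.6 FPKM (SD, n = 5), with 1.0 ± 0.47 (adjusted p = 0.66). Organic replicates 3 and 5 stood above every conventional library and the other 3 within their range, and without organic replicate 3 the value was 0.47.

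SLC1A4 was at 1.52, 0.753, 10.2, 0.697 and 0.864 FPKM in conventional and 0.657, 0.894, 0.936, 0.699 and 1.05 in organic muscle, with -1.73 ± 0.75 (adjusted p = 0.651). This rested on conventional replicate 3, without which the value was -0.21 ± 0.31. SLC38A10 completed the 6 with 6.88 ± 1.22 and 5.56 ± 1.39 FPKM (SD, n = 5) and -0.33 ± 0.19 (adjusted p = 0.696). Of the main carriers of muscle, SLC7A5 had -0.13 ± 0.47, SLC38A3 0.30 ± 0.25, SLC38A2 -0.03 ± 0.19 and SLC7A2 0.36 ± 0.27. The value of SLC7A5 became 0.61 ± 0.25 without conventional replicate 3.

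**Figure D4:**
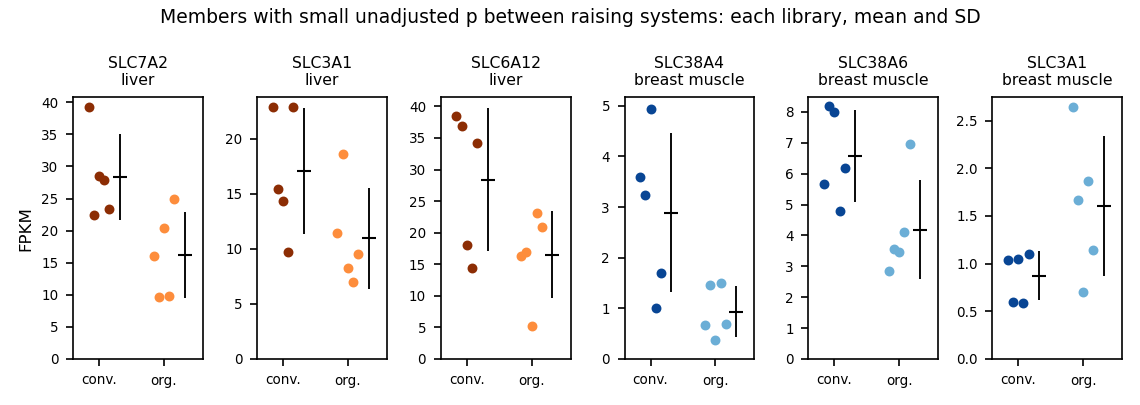
Deposited FPKM of members with a small unadjusted p between raising systems, 1 point per library (5 conventional and 5 organic), with the mean as a dash and the SD as a bar. In each panel the conventional and organic points overlap, as for SLC7A2 in liver at 22.4 to 39.3 against 9.62 to 25.0 FPKM.

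Whether the raising difference was the same in both tissues was tested over all 20 libraries. With edgeR 0 of 27 members passed, and 0.0% of 14447 genes, and 3 members had an unadjusted p under 0.05, where 5.34% of all genes lay. DESeq2 called 0, with 4 members at an unadjusted p under 0.05, where 869 of 14439 genes lay. SLC6A12 and SLC7A10, at 0 in muscle, have no usable value here. SLC36A4 had a difference of -0.00138, so close to 0 that the SE derived from the F statistic is unreliable. That SE was 3.05, against 0.669 with DESeq2. SLC38A4 had a difference of 1.79 ± 0.52 (liver minus muscle, adjusted p = 0.838), from 0.14 in liver and -1.65 in muscle. SLC3A1 had -1.49 ± 0.46 (adjusted p = 0.838), lower in organic livers and higher in organic muscle. SLC7A2 had -1.17 ± 0.40 (adjusted p = 0.871), from -0.81 in liver and 0.36 in muscle.

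Spread between birds was uneven among members, and single libraries set several of the extremes. Over the 10 livers the highest library was 1.32 times the lowest for SLC38A10, 1.46 for SLC38A9 and 1.48 for SLC36A1, but 10.4 for SLC6A9 and 18.0 for SLC7A11. Over the 10 muscles it was 1.85 for SLC38A2 and 38.2 for SLC7A1. Muscle conventional replicate 3 was the highest muscle library for 8 of the 21 tested members, and for 14% of all genes. These were SLC1A4, SLC6A9, SLC7A1, SLC7A3, SLC7A5, SLC38A1, SLC38A4 and SLC38A7. SLC7A1, the main arginine and lysine carrier of many cells, was at 1.11, 0.863, 18.7, 0.488 and 0.894 FPKM in conventional and 1.81, 2.40, 4.71, 2.84 and 1.01 in organic muscle, so this library was 16.8 times the median of the other 9. SLC1A4 was 11.8 times that median, SLC6A9 8.62, SLC38A1 4.09, SLC7A5 3.63 and SLC7A3 2.25 times. SLC38A2 and SLC43A2 were not high there, at 18.7 and 21.0 FPKM, and SLC43A2 was at its lowest of the 10.

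Genes of the amino acid starvation response were set beside these values. In this response the kinase EIF2AK4 raises the factor ATF4, which with C/EBP partners switches on enzymes and carriers. Of 13 such genes tested in muscle, 5 were highest in conventional replicate 3 (ASNS, CEBPG, EIF2AK4, PSAT1 and PSPH), as were 9 of 27 genes of amino acid sensing by mTORC1, against the 14% of all genes given above. ASNS, which makes asparagine, was at 4.71, 3.5, 97.1, 2.48 and 3.6 FPKM in conventional and 2.7, 5.67, 5.98, 4.09 and 2.93 in organic muscle. PSAT1 was at 36.9 FPKM there and 4.65 to 7.64 in the other 9, and PSPH at 121 against 47.6 to 89.9, both enzymes of serine synthesis. ATF4 mRNA was within the range of the others, at 446 against 355 to 733 FPKM, as was CHAC1 at 50.9 against 49.1 to 379. CEBPB was below them, at 15.2 against 29.5 to 109.0, and so was VLDLR, at 33.0 against 34.8 to 83.9. Of the 10 cell type lists, 5 had their lowest sum of the 10 muscle libraries here, and 13.1% of all genes were lowest here. The lists were hepatocyte (255 FPKM, nearly all APOA1), endothelial (29.2), macrophage (26.1), fibroblast (943) and erythrocyte (74.2, beside 74.5 in organic replicate 1). What sets this library apart was not tested.

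**Figure D5:**
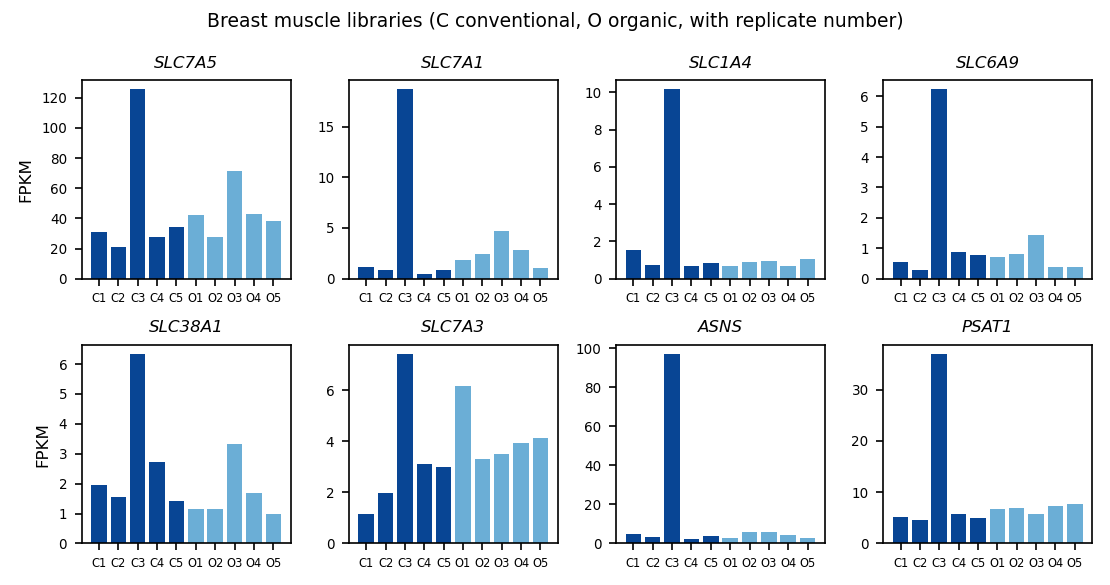
Deposited FPKM in each of the 10 breast muscle libraries (bars, C conventional and O organic with the replicate number) for 6 members and for ASNS and PSAT1, genes of the starvation response. Conventional replicate 3 is the highest bar in each panel, at 125 FPKM for SLC7A5, 18.7 for SLC7A1 and 97.1 for ASNS.

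Liver conventional replicate 1 was the highest liver library for 11 of the 27 tested members, and for 12.6% of all genes. They included SLC7A1 at 7.21 FPKM, SLC7A2 at 39.3, SLC7A3 at 9.94, SLC7A5 at 12.5, SLC7A11 at 3.76 and SLC38A1 at 9.97. SLC3A1 at 22.9 and SLC6A12 at 38.5 were also highest there. With SLC7A2 and SLC7A5 they are among the members with the smallest p between raising systems in liver. In the same library ASNS was at 63.4 FPKM against 17.7 to 49.6 in the other 9, CHAC1 at 72.2 against 6.83 to 40.8, and ATF4 at 467 against 285 to 417, each the highest of 10 livers. In all, 4 of 13 starvation genes tested (these and GCN1) and 8 of 27 genes of amino acid sensing by mTORC1 were highest there. PSAT1, at 127 FPKM, and VLDLR, at 1.31, were below the median of the other 9, at 137 and 2.19. Without liver conventional replicate 1 the raising difference in liver was -0.66 for SLC7A2, -0.53 for SLC3A1 and -0.29 for SLC7A5. In organic muscle, replicate 3 was highest for 5 members (SLC36A1, SLC43A2, SLC43A3, SLC7A2 and SLC7A6OS) of 21, and for 9.61% of all genes.

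Other genes of amino acid handling were read from 3 lists. Of 13 other amino acid carriers and partners, 9 were in the table and 4 were tested in the tissue comparison. SLC16A10, the carrier of aromatic amino acids, and the lysosomal SLC15A4 were lower in liver, at -0.54 ± 0.14 and -0.52 ± 0.10. CTNS, which exports cystine from lysosomes, did not pass at 0.03 ± 0.11. Between raising systems 0 of 4 passed in liver and 0 of 3 in muscle with edgeR, with 0 at an unadjusted p under 0.05 in either tissue. Of all genes, 7.56% lay there in liver and 7.47% in muscle. The smallest p in liver were those of CTNS at 0.33 ± 0.16 and SLC16A10 at -0.34 ± 0.18, and in muscle that of SLC16A10 at 0.31 ± 0.19.

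Of 32 genes of amino acid sensing by mTORC1, the kinase complex that amino acids switch on at the lysosome, 27 were tested. In the tissue comparison 6 were higher in liver, 14 were lower and 7 did not pass, with a median of -0.40 against 0.07 over all genes, of which 42.5% were higher and 39.1% lower. RRAGD, a GTPase of the lysosomal platform, was at 57.3 to 89.3 FPKM in muscle and 3.42 to 5.03 in liver, with -4.06 ± 0.10. SESN1 and SESN2, stress-induced proteins that restrain mTORC1, had -3.23 ± 0.18 and -2.02 ± 0.29, and CASTOR2 had -2.61 ± 0.31. RRAGB had -2.15, LAMTOR1 -1.83, RPTOR -1.40, MLST8 -1.30, WDR24 -1.18, MTOR -1.13, NPRL2 -1.0, LAMTOR5 -0.83, CASTOR1 -0.55 and SEH1L -0.22. The higher ones in liver included SEC13 0.55, TSC2 0.47, NPRL3 0.33, MIOS 0.31 and WDR59 0.24. SLC38A9, the sensor among the members, was instead higher in liver.

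Between raising systems 0 of the 27 passed in either tissue with edgeR, with 0 at an unadjusted p under 0.05 in liver and 3 in muscle. Of all genes, 7.56% lay there in liver and 7.47% in muscle. In liver the smallest p were those of TSC2 at -0.30 ± 0.15, WDR59 at -0.26 ± 0.13 and RHEB at 0.27 ± 0.13. In muscle SESN2 had -1.02 ± 0.33 (adjusted p = 0.567), RRAGC 0.47 ± 0.16 and SESN1 0.72 ± 0.27. SESN2 stood at 36.6, 90.7, 71.2, 36.4 and 104 FPKM in conventional and 21.5, 24.5, 41.5, 33.3 and 48.8 in organic muscle.

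Of 16 starvation-response genes 13 were tested. In the tissue comparison 5 were higher in liver, 7 were lower and STC2 did not pass at -0.05 ± 0.37, with a median of -0.48, beside the same 42.5% and 39.1% of all genes. PSPH had 6.30 ± 0.26, PSAT1 4.34 ± 0.49, ASNS 1.87 ± 0.58, CEBPB 1.11 ± 0.27 and EIF2AK4 0.75 ± 0.10. The lower ones were VLDLR -4.74 ± 0.20, DDIT4 -4.35 ± 0.24, CHAC1 -3.30 ± 0.47, SESN2, CEBPG -1.91 ± 0.12, GCN1 -1.31 ± 0.10 and ATF4 -0.48 ± 0.11. Between raising systems 0 of 13 passed in either tissue with edgeR, with 0 at an unadjusted p under 0.05 in liver and 2 in muscle (SESN2 and ATF4). Of all genes, 7.56% lay there in liver and 7.47% in muscle. In muscle ATF4 had 0.37 ± 0.16 and ASNS -2.39 ± 1.12, the latter with conventional replicate 3 at 97.1 FPKM and the other 9 libraries at 2.48 to 5.98.

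No marker of the 10 cell type lists passed between raising systems in either tissue with edgeR. The erythrocyte list had 5 of 5 tested genes above 0 in each tissue, with medians of 0.41 in liver and 1.42 in muscle, and its sum in muscle organic replicate 4 was 733 FPKM against 74.2 to 229 in the other 9. In liver all 5 endothelial markers tested were above 0 (median 0.15) and all 5 fibroblast markers below (median -0.47), as were all 5 T cell markers (median -0.25). In muscle 4 of 5 endothelial markers were below 0 (median -0.21). The 3 cholangiocyte markers tested in muscle had a median of -0.65, and the 3 adipocyte markers in liver -0.49. The 3 slow muscle fibre markers tested in muscle had -2.55, with 2 below 0. Of that list, MYH7B, MYL3 and TNNI1 had medians of 0.0882 to 0.494 FPKM in conventional muscle, but highest values of 73.2 to 115. MB had a median of 4.83 and a highest value of 99.8 there. TNNC1, the highest of the list, was at 3410 to 5044 FPKM in conventional and 3881 to 5360 in organic muscle. The part of these marker differences in the members' values was not tested.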

How the data were processed

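RNA-seq libraries of liver and pectoralis major from conventional and organic birds (n = 5 each) were compared. The authors deposited counts and FPKM per gene in 1 table. GRCg6a, HISAT2 2.0.5 and DESeq2 1.20.0 are listed in the submitters' processing notes. No source used here gives the strand setting of the counting. The deposited FPKM equal the count over gene length and a library factor that was 0.824 to 1.19 times the library total, and they were used as levels.

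The members and all gene lists were chosen with earlier results of these data known. Counts were tested with edgeR 4.0.16 (R 4.3.3): genes were kept by filterByExpr (minimum count 10), scaled by TMM, and tested with the robust quasi-likelihood test, two-sided, with Benjamini-Hochberg adjustment over all genes tested and a threshold of 0.05. Raising systems were compared within each tissue. The tissue contrast and its interaction with raising used all 20 libraries with 4 group means. The second tissue rule asked for an absolute log2 fold change of at least 2. The main edgeR fit of each comparison was also run on simulated counts, with the outcome not reported here. The alternatives below were not run on simulated counts. Full values were given for the 6 members with the smallest p per tissue, the 6 largest tissue differences per direction, the 5 highest levels per tissue, the 3 smallest interaction p-values and the SLC3A1, SLC7A5 to SLC7A11 partners. Tissue p-values of members that passed the filter through liver alone were left out. SLC7A1, ASNS, PSAT1 and others of the 2 libraries that stood apart, and the genes without a symbol, were named after their values were seen. Floors use 3 counts and cover counting error only. Alternatives were other scalings, filters, pseudocounts, DESeq2 1.42.0, limma 3.58.1, a replicate block and leaving out each library. Results for a few genes of the lists are not reported here.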

Additional observations from a re-analysis of the deposited data

Results flagged for a closer look

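In 96 groups of 5 libraries, 9 values stood apart from the other 4 by a gap of more than 0.71 of the group's range. For normally distributed values this cut-off gives about 1 in 20 groups, or 4.8. FPKM were used as they stand, with no allowance for skew, and all 9 were the highest value of their group. Muscle conventional replicate 3 held 5 of them. There SLC7A5 was at 125 FPKM against 21.2 to 34.6 in the other 4 conventional muscles, and SLC7A1 at 18.7 against 0.488 to 1.11. SLC1A4 was at 10.2 against 0.697 to 1.52, SLC38A1 at 6.33 against 1.42 to 2.73, and SLC6A9 at 6.22 against 0.293 to 0.861. Muscle conventional replicate 4 held SLC38A3 at 42.6 FPKM against 19.7 to 25.2, and SLC6A4 at 2.25 against 0.352 to 0.823. In liver, SLC1A1 was at 4.85 FPKM in conventional replicate 2 against 1.37 to 2.10, and SLC1A6 at 2.37 in organic replicate 5 against 0.227 to 0.573.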

How the results depend on the processing

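The count of members passing between raising systems was 0 in liver, in muscle and for their difference under each alternative run. In the tissue comparison 22 of 27 passed, beside 42.5% of all genes higher and 39.1% lower in liver. The count was 18 (organic birds alone) to 28 (no filter on low counts) under other settings, and 21 to 26 when 1 library was left out. These counts are not all out of 27, because the members tested changed with the setting. The 26 were out of 28, and SLC7A9 entered and passed in most runs with 1 library left out. Its log2 fold change was 1.87 ± 0.73 without muscle conventional replicate 3. Shares of all genes for these settings are not given here. The count past 4-fold was 11, 10 to 12 when 1 library was left out, and 7 with limma on log2(FPKM + 1). With library totals alone the tissue median of all genes moved from 0.07 to 0.20. Some raising differences changed sign. Leaving out conventional replicate 3 moved muscle SLC7A1 from -0.79 ± 0.99 to 1.58 ± 0.42 and SLC6A9 from -1.22 ± 0.78 to 0.25 ± 0.45. SLC7A3 kept its sign and moved from 0.31 ± 0.40 to 0.83 ± 0.28. None of these passed. Small differences changed sign too. In liver, SLC38A2 was -0.0507 and SLC38A3 -0.0458 with library totals alone. With 1 library left out, SLC38A2 ran from -0.17 to 0.19, SLC38A3 from -0.13 to 0.18 and SLC38A10 from -0.0709 to 0.0102. In muscle, SLC38A2 ran from -0.14 to 0.0615 and SLC7A5 from -0.38 to 0.61, and SLC7A5 was 0.15 with log2(FPKM + 1) and 0.16 with log2(FPKM + 0.1). SLC7A2 between tissues was -0.0607 in organic birds alone. The cause was not tested.

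To look for pairing, the log2 CPM of each gene in a library was taken as its difference from the mean of its group. Between same-numbered libraries of the 2 raising systems these differences correlated at -0.142 to 0.121, and 0 of 10 matched best with their own number. Between same-numbered libraries of the 2 tissues the differences correlated at 0.0465 to 0.191, over 0.1 in 8 of 10. There 9 of 10 matched best with their own number, a hint from the data alone. The replicate block was not the same in each comparison. Within a tissue it joined conventional and organic libraries of the same number, which are different birds, so it is no check of pairing by bird. With it 0 members passed in liver and 0 in muscle. The log2 fold change of SLC38A2, liver, was then -0.00424 and that of SLC7A5 in muscle was 0.13. Between tissues the block joined liver and muscle libraries of the same number and raising system. There 21 passed, without SLC6A2.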
